A study of Homo sapiens with 4 samples.

Results

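UDP-glucuronosyltransferases (UGTs) and sulfotransferases (SULTs) were described in hepatocellular carcinoma (HCC) cells exposed to arsenic trioxide (ATO). The group was a list of 10 genes, chosen with earlier results of these data known. It holds 6 UGT2B genes (UGT2B4, UGT2B7, UGT2B10, UGT2B11, UGT2B15 and UGT2B28), 3 SULT genes (SULT1E1, SULT2A1 and SULT1C2) and UGDH. A gene was followed through every probe set, a group of short probes for 1 transcript, that the array annotation listed with that gene alone. This gave 14 probe sets for 7 of the 10 genes, of 19775 genes and 54613 probe sets other than controls. UGT2B7, UGT2B10 and UGT2B11 were not analysed here. Of the 14 probe sets, 3 have names ending in _x_at, which marks sets whose probes can bind other transcripts, and these were kept apart.

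The study compared 2 established human HCC cell lines, Huh7 and Hep3B, under treatment and control. ATO-treated Huh7 and ATO-treated Hep3B cells received a low dose of 3 μM ATO for 7 days. The negative control (NC) cells of each line received DMSO. RNA was hybridized to Human Genome U133 Plus 2.0 arrays, and there was 1 array profile for each line and treatment, 4 in all. Whether several arrays were averaged into a profile is not given in the sources used here, and each profile is called an array below.

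Conjugation makes a lipid-soluble compound water-soluble so that it can leave the cell into bile or urine. Most UGTs, enzymes of the endoplasmic reticulum, attach glucuronic acid from UDP-glucuronic acid, and SULTs, enzymes of the cytosol, attach sulfate from the donor PAPS. In liver both families act on steroid hormones, bile acids and drugs, and UGTs also act on bilirubin. Many genes of both families are characteristic of mature hepatocytes.

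The values are intensities on a linear scale, and the ratio of ATO over NC was taken within each line. No error can be given for a ratio in 1 line. The thresholds of 1.5 and 0.67 were those the study used. Where several probe sets read a gene, the brightest stood for it. The median intensity of all probe sets, 17.3, was the only gauge of a dim probe set. Over all genes the log2 ratio had a median of 0.01 in Huh7, against 0.04 in Hep3B. The mean log2 ratio of the poly-A controls, added before labeling, was -0.28 in Huh7 and -0.30 in Hep3B, and that of the hybridization controls was 0.07 and 0.06.

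The labels of the lines were checked with hepatocyte and HCC markers, 9 of which were measured out of 10 listed. SERPINA1, TF and APOB, which encode secreted liver proteins, were bright in all 4 arrays, and every measured marker lay above the median intensity. However, AFP, the fetal albumin-like protein for which Huh7 cells are known, had intensities of 62.1 with ATO and 91.8 with NC in the arrays labelled Huh7, against 1646 and 3567 in Hep3B. ALB, GPC3 and TTR were likewise below 0.1 times the Hep3B level in both treatments, and APOA1 and TF were lower by less. In contrast, SERPINA1 and FGB were higher in Huh7 in both treatments, by 1.53 and 1.29 times with ATO and by 1.26 and 4.83 times with NC, and APOB had 1.01 times the Hep3B level with ATO and 0.750 times with NC. Thus the level of AFP went against the label Huh7, while 2 of the 9 markers were higher there, and each ratio below is also given for Hep3B alone. Of the markers of other cell types, LYZ had intensities of 234 and 411 in ATO-treated and NC Huh7 cells, and of 30.3 and 176 in ATO-treated and NC Hep3B cells. The 4 blood markers summed to 277 and 452 in ATO-treated and NC Huh7 cells and to 76.5 and 227 in ATO-treated and NC Hep3B cells, while PTPRC, the pan-leukocyte marker, was at most 8.87. The part of these differences in the results was not tested.

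Across the 7 measured genes, ATO went with changes in both directions. Because members and lists were chosen with earlier results of these data known, shares of all genes, here and below, are a scale and not a test. UGT2B28 was above 1.5 in both lines, which is 1 of 7 genes where 0.804% of all genes were. SULT2A1 was below 0.67 in both lines, again 1 of 7 genes, where 0.587% of all genes were. SULT1C2 passed the thresholds in opposite directions, as 0.324% of all genes did. In Huh7, 2 member genes were above 1.5 and 1 was below 0.67, with backgrounds of 3.21% and 3.25%. In Hep3B alone, 3 member genes were above 1.5 and 3 were below 0.67, with backgrounds of 5.04% and 4.02%. UGDH was past neither threshold in either line. The median log2 ratio of the 7 genes was 0.17 in Huh7 and 0.34 in Hep3B. By probe set, 3 of 14 were past a threshold in the same direction in both lines, where 1.05% of all probe sets were, and 2 were past the thresholds in opposite directions, 1 each of SULT1E1 and SULT1C2, where 0.276% of all were. The medians of the 14 were 0.02 in Huh7 and 0.01 in Hep3B. In these bulk RNA samples, fewer cells with a transcript and less transcript per cell cannot be told apart.

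**Figure D1:**
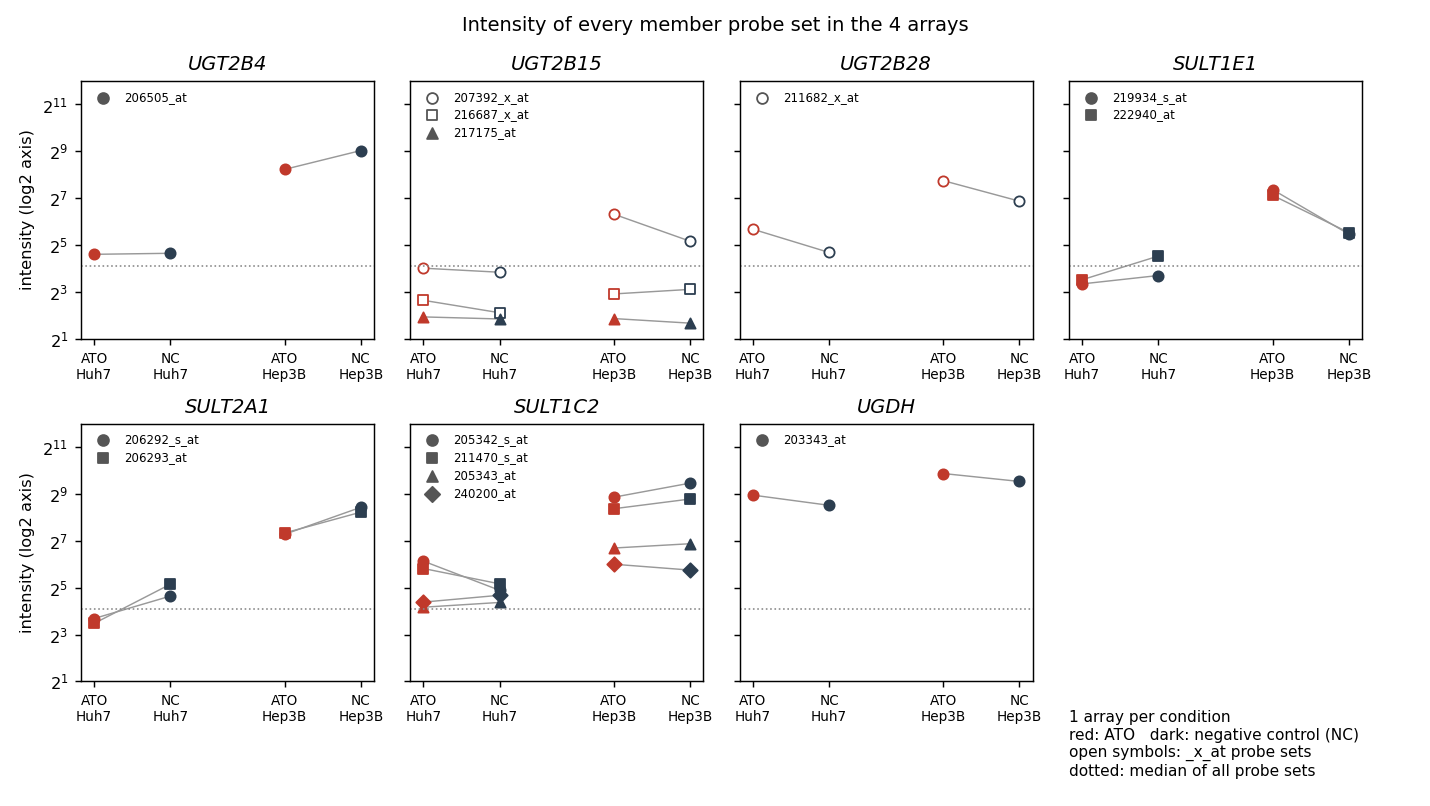
Intensity (log2 axis) of each of the 14 member probe sets in the 4 arrays, 1 panel per gene, with ATO in red to the left of NC in dark blue within each line. Each point is 1 array, lines join the treatments of a cell line, open symbols are _x_at probe sets, and the dotted line is the median of all probe sets, 17.3.

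Among the UGT2B genes, UGT2B28, whose enzyme conjugates steroids, was higher with ATO in both lines. Its only probe set, 211682_x_at, had an intensity of 51.2 in ATO-treated Huh7 cells, against 25.8 in NC Huh7 cells. In Hep3B it was 215 with ATO and 117 with NC. All 4 values were above the median intensity, and the ATO value was higher within each line, 1.99 times in Huh7 and 1.84 times in Hep3B. The mean log2 ratio was 0.93 ± 0.08 (SD, n = 2 lines). In limma, fitted to log2(intensity + 16) of all probe sets with the cell line in the model, the difference was 0.74 (95% confidence interval 0.54 to 0.94), with an adjusted p of 0.576. Intervals, here and below, are those of each probe set alone and, unlike the adjusted p, take no account of the number tested. This probe set is of the _x_at kind and may read other UGT2B transcripts, and with such sets left out no member gene was above 1.5 in both lines.

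UGT2B15, whose enzyme inactivates androgens such as dihydrotestosterone, was read by 3 probe sets that disagreed. The one that stood for the gene, 207392_x_at, had intensities of 16.2 and 14.3 in ATO-treated and NC Huh7 cells, against 79.7 and 35.9 in ATO-treated and NC Hep3B cells. Thus both Huh7 arrays were below the median intensity, and in Hep3B the ATO value was higher, with a ratio of 2.22 against 1.13 in Huh7. The limma difference was 0.48 (95% confidence interval -0.38 to 1.35; adjusted p = 0.713). The other 2 probe sets were below the median intensity in all 4 arrays. Of these, 216687_x_at had a ratio of 1.44 in Huh7 but 0.874 in Hep3B, and 217175_at, the only one that is not of the _x_at kind, had 1.06 and 1.14.

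The 250 bases before the start of UGT2B15 on chromosome 4 (GRCh38.p14, minus strand, chr4:68670653-68670902) are shown from RefSeq because, of the members in the promoter table, this gene alone held 2 copies of AGGTCA, a motif of nuclear receptors. The capitals mark both copies, which begin 217 and 143 bases before the start.
UGT2B15: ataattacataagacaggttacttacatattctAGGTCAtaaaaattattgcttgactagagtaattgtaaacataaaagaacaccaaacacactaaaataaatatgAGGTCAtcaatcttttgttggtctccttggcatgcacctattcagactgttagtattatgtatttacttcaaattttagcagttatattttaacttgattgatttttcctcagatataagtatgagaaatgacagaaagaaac

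UGT2B4, whose enzyme conjugates bile acids, was lower with ATO in Hep3B, while its Huh7 values lay close together. Its probe set 206505_at had intensities of 24.4 with ATO and 25.1 with NC in Huh7. In Hep3B these were 300.3 and 524.1. The ratios were 0.970 in Huh7 and 0.573 in Hep3B, so that only the Hep3B ratio passed 0.67. The limma difference across the lines was -0.40 (95% confidence interval -1.21 to 0.41), with an adjusted p of 0.746.

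Of the sulfotransferases, SULT2A1, which sulfates dehydroepiandrosterone and bile acids, was lower with ATO in both lines by both of its probe sets. The brighter one, 206292_s_at, had intensities of 12.8 in ATO-treated and 24.9 in NC Huh7 cells. In Hep3B it had 155 with ATO and 344 with NC. The second, 206293_at, had 11.1 with ATO and 35.4 with NC in Huh7, and 161 with ATO and 298 with NC in Hep3B. ATO-treated cells were the lower ones in all 4 of these pairs, but the ATO-treated Huh7 values of both sets were below the median intensity.

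The SULT2A1 ratios were 0.516 in Huh7 and 0.450 in Hep3B by 206292_s_at, and 0.314 and 0.540 by 206293_at. On the gene's main probe set the mean log2 ratio was -1.05 ± 0.14 (SD, n = 2 lines), and on 206293_at it was -1.28 ± 0.55. The limma difference was -0.79 (95% confidence interval -1.42 to -0.16) for 206292_s_at and -0.87 (-1.07 to -0.68) for 206293_at, with adjusted p of 0.576 for each. Both are on log2(intensity + 16), which draws ratios of dim values toward 1. Without the 16, the log2 ratio of 206293_at was -1.67 in Huh7, outside its interval, and -0.89 in Hep3B. When 16 was added to every intensity, the Huh7 ratio of 206292_s_at became 0.705 and no longer passed 0.67, while that in Hep3B was 0.475.

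The same 250 bases of SULT2A1 on chromosome 19 (GRCh38.p14, minus strand, chr19:47886316-47886565) are shown because it was the only member past a threshold in the same direction in both lines that the promoter table held. It has no capitals, since neither of the 2 motifs searched on both strands, AGGTCA and the antioxidant response element core TGACNNNGC, was found in these letters.
SULT2A1: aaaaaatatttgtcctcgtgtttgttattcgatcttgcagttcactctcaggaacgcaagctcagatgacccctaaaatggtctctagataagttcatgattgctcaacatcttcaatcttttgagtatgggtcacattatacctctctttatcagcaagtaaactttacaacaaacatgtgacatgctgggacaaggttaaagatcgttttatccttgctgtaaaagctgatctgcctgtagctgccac

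SULT1E1, the estrogen sulfotransferase, differed in direction between the lines, as did SULT1C2, which is 2 of 7 genes, where 42.9% of all genes had ratios on opposite sides of 1. Its brighter probe set, 219934_s_at, had intensities of 10.2 with ATO and 13.0 with NC in Huh7, both below the median intensity. In Hep3B the intensity was 165 with ATO, against 44.3 with NC. The ratios were 0.780 in Huh7 and 3.73 in Hep3B, and the second probe set, 222940_at, gave 0.497 and 3.01. In Huh7 this second set had 11.5 with ATO, below the median intensity, and 23.1 with NC. Both sets were thus lower with ATO in Huh7 and higher with ATO in Hep3B. Across the lines the limma difference was 0.72 (95% confidence interval -1.13 to 2.57; adjusted p = 0.809) for 219934_s_at and 0.40 (-1.54 to 2.35; adjusted p = 0.925) for 222940_at. The difference between the lines was not tested, since each had 1 array per treatment.

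SULT1C2, a cytosolic sulfotransferase of the SULT1 family, was read by 4 probe sets. The brightest, 205342_s_at, had intensities of 70.0 with ATO and 29.5 with NC in Huh7. In Hep3B it had 465 with ATO and 704 with NC. The ATO value was therefore the higher one in Huh7 and the lower one in Hep3B, with ratios of 2.37 and 0.660. The second set, 211470_s_at, went the same ways with 1.57 in Huh7 and 0.751 in Hep3B. However, 205343_at had 0.869 in Huh7 and 0.881 in Hep3B, and 240200_at had 0.817 and 1.19, so the 4 sets gave ratios between 0.817 and 2.37 in Huh7. The limma difference of 205342_s_at was 0.17 (95% confidence interval -1.43 to 1.77), with an adjusted p of 0.974.

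UGDH, which oxidizes UDP-glucose to the UDP-glucuronic acid that UGT1 and UGT2 enzymes use, was slightly higher with ATO in both lines. Its probe set 203343_at had intensities of 494 with ATO and 365 with NC in Huh7, and of 935 with ATO and 739 with NC in Hep3B. The ratios were 1.35 in Huh7 and 1.26 in Hep3B, with a mean log2 ratio of 0.39 ± 0.07 (SD, n = 2 lines). The limma difference was 0.38 (95% confidence interval 0.19 to 0.56), with an adjusted p of 0.576. Ratios from 1.2 to 1.5 in both lines were found for 2.80% of all genes.

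**Figure D2:**
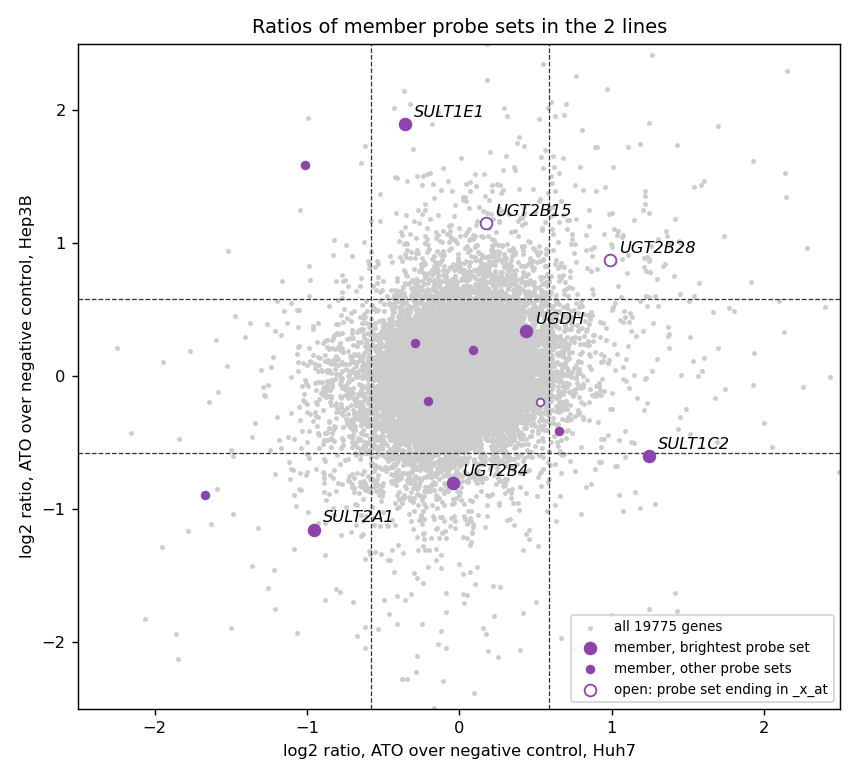
Log2 ratio of ATO over NC in Huh7 (x axis) and in Hep3B (y axis) for the 14 member probe sets in purple over all 19775 genes in grey, with dashed lines at ratios of 1.5 and 0.67. UGT2B28 lies past the thresholds at the upper right, SULT2A1 at the lower left, SULT1C2 at the lower right and the second probe set of SULT1E1 at the upper left, and 32 genes fall outside the axes.

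The treatment was tested across the lines over all 54613 probe sets, with the 2 lines as the only repeats. No member probe set was called at an adjusted p of 0.05 in limma, as 0% of all probe sets were. At an unadjusted p of 0.05, 4 of the 14 passed, where 8.56% of all probe sets did, namely those of UGT2B28, SULT2A1 and UGDH. The labels name no separate cultures, so these p-values do not measure the spread between cultures. With treatment and line in the model, they rest on how far the lines disagreed on the treatment, with limma drawing on all probe sets.

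The second comparison was between the lines, with the treatments as the only repeats of a line. Its p-values rest on the same disagreement and likewise do not measure the spread between cultures. In limma, 7 of 14 member probe sets were lower in Huh7 than in Hep3B at an adjusted p of 0.05, where 6.99% of all probe sets were, and none was higher. They belong to UGT2B4, UGT2B28, SULT2A1, SULT1C2 and UGDH. All 7 genes were lower in Huh7 in both treatments, where 33.9% of all genes were, and 6 of them were below 0.5 times the Hep3B level in both, where 6.66% of all genes were. Of the 14 probe sets, 11 were below 0.5 times in both treatments, where 4.80% of all probe sets were. AFP, ALB, TTR and GPC3 were also far lower in the arrays labelled Huh7, while SERPINA1 and FGB were higher, and the part of this in the differences was not tested. The count of 7 rested on the settings of limma. It was 12 without the offset, where 6734 of 54613 probe sets were lower in Huh7. With an intensity trend in the prior it was 13, where 6582 of 54613 were. Without dim sets it was 12 of 12, where 5973 of 27283 were.

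The gap between the lines was widest for UGT2B4, with a limma difference of -3.34 (95% confidence interval -4.15 to -2.53; adjusted p = 0.0269). Its Huh7 intensities were 0.0812 times those in Hep3B with ATO and 0.0479 times with NC. SULT2A1 differed by -2.85 (adjusted p = 0.0258) and -2.66 (adjusted p = 0.0195) in its 2 probe sets. UGT2B28 differed by -1.73 (95% confidence interval -1.93 to -1.53; adjusted p = 0.0195). UGDH differed least among the called genes, by -0.94 (-1.13 to -0.75; adjusted p = 0.0240), and its Huh7 level was 0.528 times that in Hep3B with ATO and 0.494 times with NC. For SULT1C2, 205343_at and 211470_s_at were called in limma, at -1.84 (adjusted p = 0.0195) and -2.70 (adjusted p = 0.0382). The brightest set of the same gene missed the threshold at -3.23 (adjusted p = 0.0582). SULT1E1 was not called, at -1.92 (95% confidence interval -3.77 to -0.07; adjusted p = 0.156), and its Huh7 level was 0.0615 times that in Hep3B with ATO but 0.294 times with NC.

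**Figure D3:**
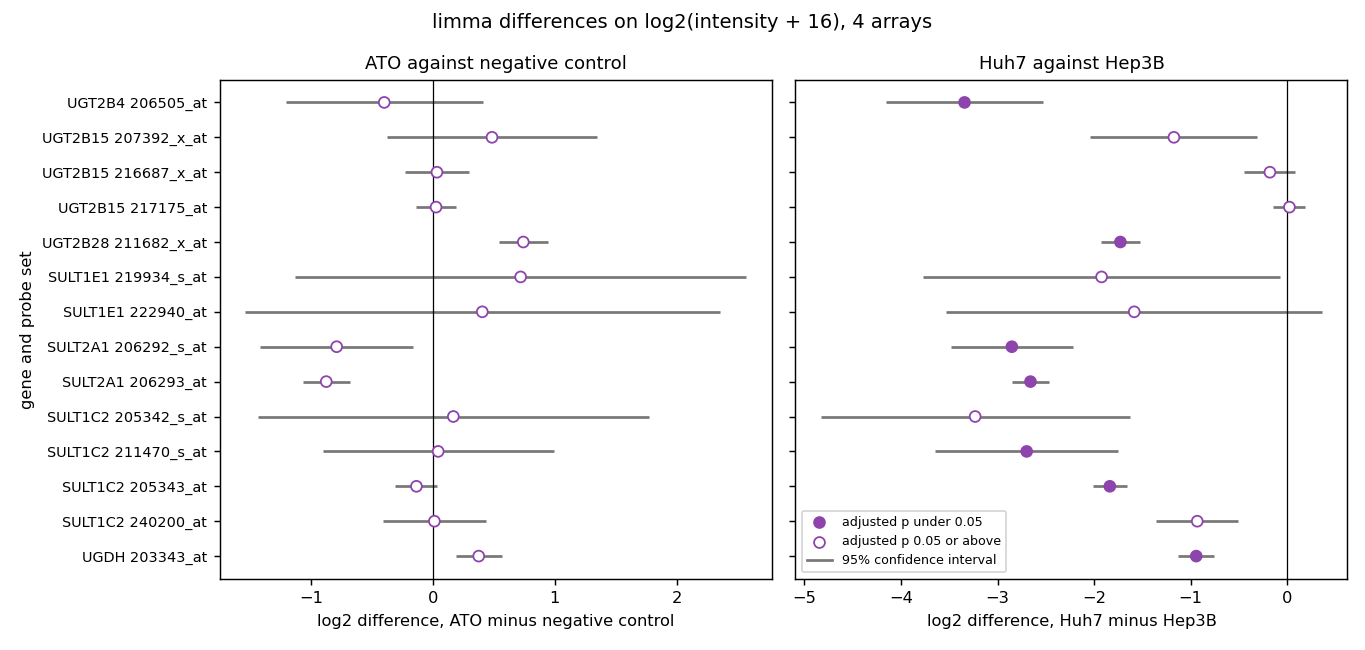
Differences from limma on log2(intensity + 16) for the 14 member probe sets, ATO minus NC on the left and Huh7 minus Hep3B on the right, with 95% confidence intervals as bars and filled points for adjusted p under 0.05. No point is filled on the left and 7 are filled on the right, all below 0.

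Probe sets that the annotation lists with several genes of the same families name no single gene. Those of the UGT1A locus, whose enzymes conjugate bilirubin and many drugs and share their last exons, numbered 7, and 3 of them were above 1.5 in both lines, where 0.529% of all probe sets were. Intensities of 207126_x_at were 49.6 with ATO and 22.7 with NC in Huh7, and 142 with ATO and 45.2 with NC in Hep3B. Those of 204532_x_at were 31.3 and 13.7 in ATO-treated and NC Huh7 cells, and 99.4 and 32.01 in ATO-treated and NC Hep3B cells. The ATO value was the higher one in each pair, with ratios of 2.18 and 3.14 for the first set and 2.28 and 3.11 for the second, in Huh7 and Hep3B.

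The third UGT1A probe set, 215125_s_at, had intensities of 24.3 with ATO and 14.5 with NC in Huh7, and of 88.9 and 21.8 in Hep3B. Its ratios were 1.68 in Huh7 and 4.08 in Hep3B. The NC Huh7 values of 204532_x_at and 215125_s_at were below the median intensity. The limma differences of these 3 sets were 1.06 ± 0.19, 0.97 ± 0.19 and 0.94 ± 0.33 (SE), with adjusted p between 0.576 and 0.611. In Hep3B alone, 5 of the 7 sets were above 1.5, where 2186 of the 54613 probe sets were, and the other 2 were below the median intensity in all 4 arrays. Of the 5, 206094_x_at and 208596_s_at had ratios of 1.09 and 1.25 in Huh7, though listed with the same 9 genes as 215125_s_at. Because probe sets of this locus overlap in the transcripts they read, they are not separate evidence. Of 4 probe sets shared by SULT1A3 and SULT1A4, enzymes that sulfate phenols and catecholamines, 2 were above 1.5 in Hep3B, with 1.73 for 209607_x_at and 1.53 for 210580_x_at. The other 2, 222094_at and 233334_x_at, are also listed with SLX1A and SLX1B, which are not SULT genes, and had 0.852 and 0.945 in Hep3B. None of the 4 was above 1.5 in Huh7.

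**Figure D4:**
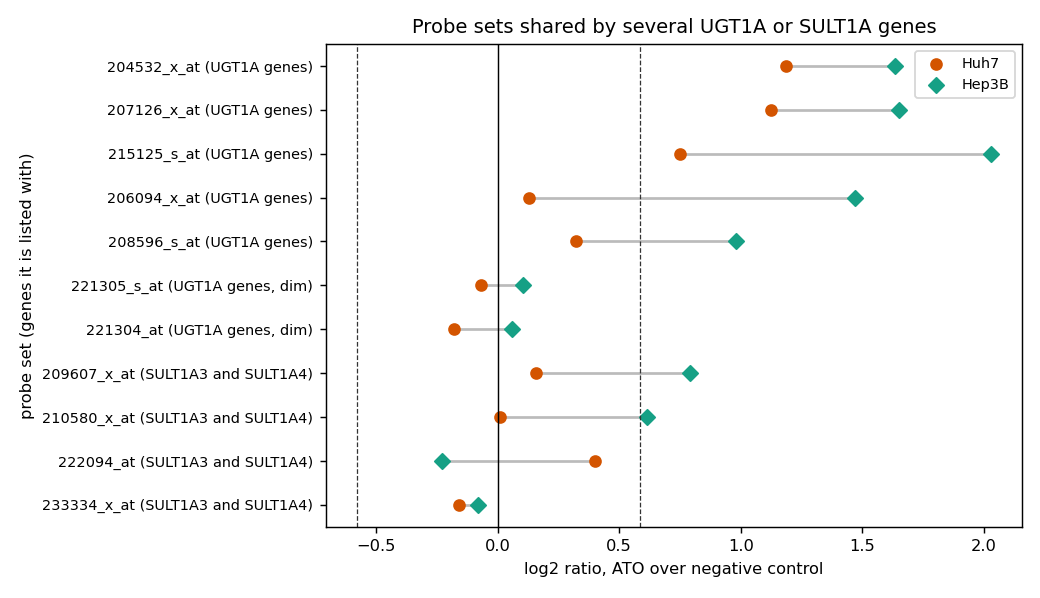
Log2 ratio of ATO over NC in Huh7 (circles) and Hep3B (diamonds) for the 11 probe sets listed with several UGT1A genes or with SULT1A3 and SULT1A4, with dashed lines at ratios of 1.5 and 0.67. The 3 UGT1A sets at the top are past 1.5 in both lines, and sets marked dim were below the median intensity in all 4 arrays.

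Other genes of conjugation were taken from 6 lists of 66 measured genes, and none of the 66 was past a threshold in the same direction in both lines, where 1.39% of all genes were, or was called by limma for treatment. At an unadjusted p of 0.05 in limma, 3 of them were higher and 11 were lower, where 6.45% of all genes were higher and 4.97% were lower. Of the other UGT genes, 6 of 16 listed were measured and 5 had a mean below the median intensity. UGT3A1, which uses another sugar donor than UDP-glucuronic acid, had intensities of 6.02 with ATO and 5.63 with NC in Huh7, and of 11.2 with ATO and 58.5 with NC in Hep3B, a ratio of 0.192 in that line. The limma difference was -0.71 ± 0.46 (SE; adjusted p = 0.773). UGT2A3 had a ratio of 0.607 in Hep3B and UGT1A6 of 1.28, both at dim intensities. Of the other cytosolic SULT genes, 5 of 10 were measured, none was past a threshold in either line, and SULT1A1, an enzyme for phenols, had 1.02 in Huh7 and 1.48 in Hep3B by its brightest set, which is of the _x_at kind.

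Genes around the supply and use of the donors, of which 12 were measured, had median log2 ratios of -0.15 in Huh7 and 0.02 in Hep3B. PAPSS2, an enzyme that makes the sulfate donor PAPS, had intensities of 504 with ATO and 222 with NC in Huh7, and of 305 with ATO and 207 with NC in Hep3B. Its ratios were thus 2.27 in Huh7 and 1.48 in Hep3B, just short of the threshold in the second, and the limma difference was 0.83 ± 0.19 (SE; adjusted p = 0.576). HK2, which phosphorylates glucose at the head of the route to UDP-glucose, had 0.507 in Huh7 and 0.820 in Hep3B. UXS1, which uses up UDP-glucuronic acid by turning it into UDP-xylose, had 0.933 and 0.735.

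Among the transcription factors known to regulate UGT and SULT genes, 17 of 23 were measured, with medians of -0.18 in Huh7 and -0.13 in Hep3B. Of these, 9 had ratios below 1 in both lines, where 24.7% of all genes had, and 2 had ratios above 1 in both, where 6332 of the 19775 genes had. CEBPB, a factor of the acute-phase response, had intensities of 2132 with ATO and 1513 with NC in Huh7, and of 1011 with ATO and 429 with NC in Hep3B, ratios of 1.41 and 2.36. For the hepatocyte factor FOXA3 the ratio was 0.540 in Huh7 and 0.719 in Hep3B, and for FOXA1 it was 0.650 and 0.702. Adjusted p in limma was 0.576 for each of the 3. The other 6 were not analysed here.

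**Figure D5:**
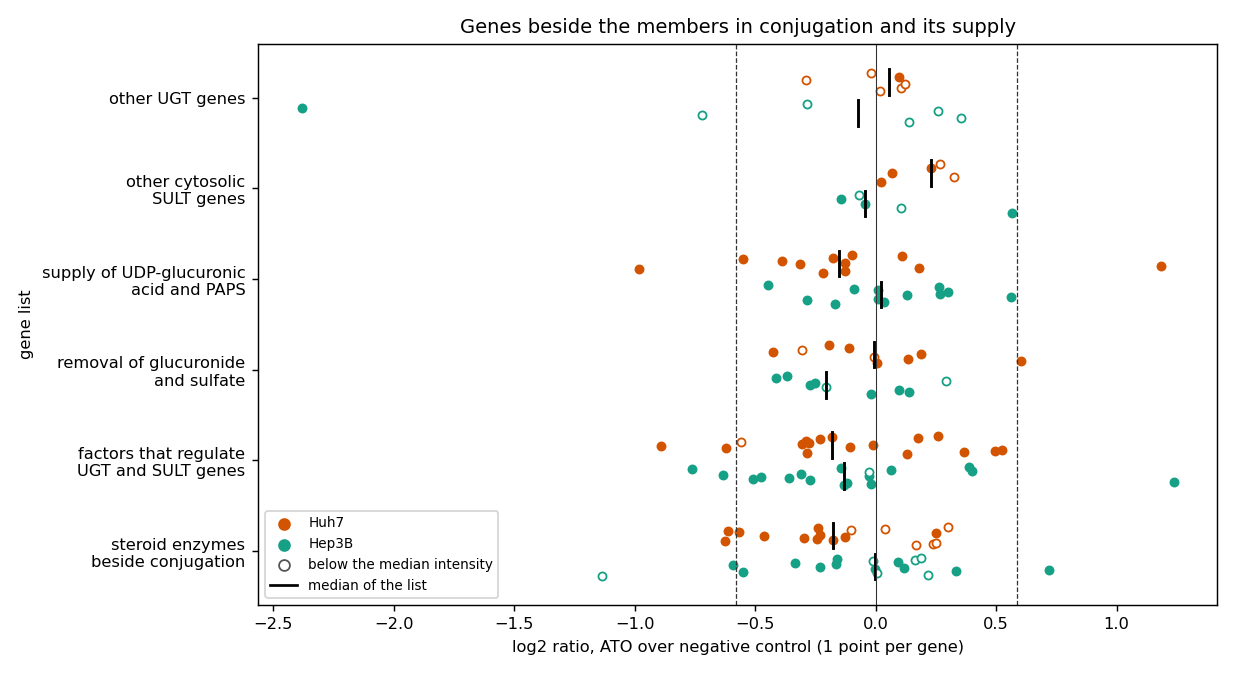
Log2 ratio of ATO over NC for the 66 measured genes of the 6 lists, 1 point per gene, with Huh7 in orange above Hep3B in green within each list and the list's median as a black bar. Open points are genes whose mean was below the median intensity, dashed lines mark ratios of 1.5 and 0.67, and no gene is past a threshold in the same direction in both lines.

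Promoters of 8 of the 10 members were in the RefSeq table (GRCh38.p14), and UGT2B4 and UGT2B28 were not among them. The letters AGGTCA were found in the promoters of 4 members, UGT2B10, UGT2B11, UGT2B15 and SULT1C2, where 12.1% of 35116 promoters held them. TGACNNNGC was found in UGT2B10, UGT2B11 and SULT1C2, where 10.9% of promoters held it, each time overlapping the AGGTCA match. These matches are a description of the letters and not of binding.

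The genes with the most similar profile were found by the Euclidean distance between log2 intensities over the 4 arrays, each centred on its own mean, among 12726 genes at or above the median intensity. For UGT2B28 these were GSTO2 (distance 0.254), RGL1 (0.262) and TMPRSS2 (0.347). For SULT2A1, MEP1A was nearest at 0.434, followed by TMEM178A at 0.524 and NREP at 0.542. SULT1E1 was nearest to CAND2 (0.391), FILIP1L (0.455) and HPD (0.493). UGDH had many near profiles, with 795 genes within 0.5, and JDP2, BRWD1 and PEA15 at 0.0718, 0.0720 and 0.0806. These distances rest on 4 arrays, in which the gap between the lines dominates.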

How the data were processed

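Affymetrix Human Genome U133 Plus 2.0 arrays were analysed for ATO-treated and NC Huh7 and Hep3B cells, 1 per group, grouped by their labels. The authors processed the scans with Robust Multi-array Average, then log-transformed and normalized them in simpleaffy, and deposited 1 intensity per probe set. The deposited intensities are linear, between 2.24 and 14163.5, and neither the return from the log scale nor whether a profile is 1 array is stated in the sources used here. The number of arrays limits the precision.

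Of 54675 probe sets, 41097 were listed with 1 gene symbol, 1801 with several and 11777 with none. The 62 controls were left out of the tests. Ratios used the deposited intensities. limma 3.58.1 (R 4.3.3) was fitted to log2(intensity + 16), with treatment and cell line as terms, 1 residual degree of freedom and a prior of 1.63, Benjamini-Hochberg adjustment over 54613 probe sets and a threshold of 0.05. The fit was tested on simulated data. Python 3.11.15 with pandas 2.3.3 was used for the rest.

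Members and lists were chosen with earlier results of these data known. All members are named, with up to 3 genes of a list whose mean log2 ratio lay farthest from 0 and the 3 nearest profiles of UGT2B28, SULT2A1, UGDH and SULT1E1. The promoter of UGT2B15 was chosen after its values were seen.

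Alternatives were other ways to combine probe sets, _x_at or dim sets left out, quantile normalization, median centring, other offsets, stricter thresholds, a line left out, other priors, no block and the methods' t-test at 0.01. Proteins were not analysed here.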

Additional observations from a re-analysis of the deposited data

Results flagged for a closer look

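In 2 of 7 genes the treatment went in opposite directions in the lines, as in 42.9% of all genes. SULT1E1 had a ratio of ATO over NC of 0.780 in Huh7, where both values were below the median intensity, and 3.73 in Hep3B. SULT1C2 had 2.37 in Huh7 and 0.660 in Hep3B by its brightest probe set, but 205343_at had 0.869 and 0.881, and 240200_at had 0.817 and 1.19. With 1 array per treatment and line, the difference between the lines was not tested.

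A signal was also seen in probe sets outside the members, which the annotation lists with several UGT1A genes. Ratios were 2.28 in Huh7 and 3.11 in Hep3B for 204532_x_at, 2.18 and 3.14 for 207126_x_at, and 1.68 and 4.08 for 215125_s_at. However, 206094_x_at and 208596_s_at, also of this locus, had 1.09 and 1.25 in Huh7. Which of the UGT1A genes these probe sets read was not tested.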

How the results depend on the processing

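The count of member genes above 1.5 in both lines, 1, became 0 without _x_at sets and 0 at a threshold of 2, and was between 2 and 3 when 1 line was left out. The count below 0.67 in both lines, 1, became 0 with 16 added to each intensity and 0 at a threshold of 0.5, and was between 1 and 3 with a line left out (1 in Huh7, 3 in Hep3B). The 3 probe sets past a threshold in both lines were 3 or 2 under the alternatives. No member probe set was called for treatment by limma under any alternative or by the methods' t-test. Over all probe sets 0 were called in the fit reported, 6 without the offset, 6 with an intensity trend in the prior and 3 without dim sets. For the cell line, the 7 member calls in limma became 12 without the offset, 13 with the trend and 12 without dim sets. They were 5 of 7 with 1 probe set per gene, and between 5 and 8 of 14 otherwise. All calls over probe sets, in both directions, numbered 7556 of 54613. Without the offset and with the trend they were 13336 and 13070 of 54613, and without dim sets they were 11756 of 27283. With an offset of 32 they were 4855 of 54613, with a robust prior 6388 and with quantile normalization 7506. With 1 probe set per gene they were 4806 of 19775. Of 34 mean log2 ratios of members under alternatives, 32 moved by less than the SD over the lines and 0 changed sign. This count cannot show stability, because the SD is wide where the lines disagreed. For UGT2B15 the mean went from 0.66 to 0.14 without _x_at sets, within its SD of 0.69. Some alternatives could not move a gene, such as leaving out _x_at sets where it has none. UGT2B28 without _x_at sets is not among the 34, since its only set is of that kind. The labels give no replicate numbers, and the cell line, as the block of the fit, paired ATO with NC. Without it, 0 members and 0 of all probe sets were called. Dim probe sets limit the Huh7 ratios of SULT2A1, SULT1E1 and UGT2B15.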

Other observations

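Steroid enzymes that act beside conjugation were measured for 17 of 18 listed genes, with a median log2 ratio of -0.18 over the Huh7 pair and -0.003 over the Hep3B pair. Of the 17, 7 had ratios below 1 in both lines, where 24.7% of all genes had, while 4 had ratios above 1 in both, where 6332 of the 19775 genes had. HSD11B2, which inactivates cortisol, had intensities of 8.09 with ATO and 12.5 with NC in Huh7, both below the median intensity. In Hep3B it had 69.6 with ATO and 101.9 with NC, so that its ratios were 0.648 in Huh7 and 0.683 in Hep3B. For HSD17B7, an enzyme of cholesterol and estradiol synthesis, the ratio was 0.676 in Huh7 and 0.793 in Hep3B. AKR1D1, the steroid 5-beta-reductase of bile acid synthesis, was dim in Huh7 and had 9.54 with ATO and 21.0 with NC in Hep3B, a ratio of 0.455. None of the 17 was called by limma, and at an unadjusted p of 0.05 in limma 0 were higher and 4 were lower, where 6.45% of all genes were higher and 4.97% were lower.

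Of a list around the removal of glucuronide and sulfate, 9 genes were measured. Some of them, such as NAGLU, SUMF1 and SUMF2, do not take off either group themselves. Of the 9, 4 had ratios below 1 in both lines, against the same 24.7% of all genes. NAGLU, a lysosomal enzyme of heparan sulfate breakdown, had 0.744 in Huh7 and 0.841 in Hep3B. SUMF2, a relative of the sulfatase activator SUMF1, had 0.874 and 0.776. ARSB, a lysosomal sulfatase, had 1.52 in Huh7 and 1.10 in Hep3B. None of the 9 was called by limma. At an unadjusted p of 0.05 in limma 0 were higher and 2, NAGLU and SUMF2, were lower, against the same shares of all genes.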
